A study of Mus musculus with 20 samples.

Results

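The DNA replication machinery was represented by 44 genes, found by their symbols among the 36724 genes of the deposited expression table. Each had 1 row and a value in every one of the 20 libraries, and all 44 passed the filter on low values that left 16403 genes for testing. By role they comprise 11 genes of origin licensing, 7 of helicase assembly and firing, 8 of the polymerases and primase, 7 of the sliding clamp and its loaders, 3 subunits of the single-strand binding protein RPA, 3 of Okazaki fragment maturation, 3 of fork protection and 2 of the chromatin assembly factor CAF-1. The genes lie on 17 chromosomes.

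Before DNA synthesis, the origin recognition complex, Cdc6 and Cdt1 load the MCM helicase onto origins, a step called licensing that geminin limits by holding Cdt1. At the start of S phase the helicase is activated by Cdc45 and the GINS complex, primase and the polymerases copy the strands behind it, PCNA clamps the polymerases to DNA, and the lagging strand fragments are trimmed and ligated. Many of these genes are transcribed from late G1 under control of E2F factors, so their RNA is widely used as a readout of cycling cells, including neural stem and progenitor cells of the adult brain.

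Expression was measured by RNA sequencing in neurospheres, free-floating cultures of neural stem and progenitor cells grown with EGF and FGF, from C57BL/6 mice aged 8 to 12 weeks. Spheres came from mice with a knockout of Egfl7, a secreted protein with EGF-like domains, or from wild-type controls, with no other treatment and no Cre or promoter named. SVZ spheres, from the subventricular zone, were taken at day 3 of the first sphere round (3 knockout and 3 wild-type libraries, all male donors). Hippocampal spheres of the first round, HC1, were taken at day 5 (3 knockout libraries from males and 3 wild-type libraries from females), so genotype and sex cannot be told apart there. A second round of hippocampal culture, HC2, was also harvested at day 5 (4 knockout and 4 wild-type libraries, all male). Mouse numbers recur between rounds, and whether HC1 and HC2 share any donor is not stated in the labels. Values are RPKM, reads scaled by gene length and by library size, and differences are on the log2(RPKM + 1) scale. A gene was called where the limma p, adjusted by Benjamini-Hochberg over all genes tested, was under 0.05. In bulk RNA of this kind, fewer cells expressing a gene and less RNA per cell cannot be told apart.

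Relative depth, recovered from the spacing of low values, was 0.912 to 1.085 in the SVZ and HC1 libraries and 1.389 to 2.44 in HC2. Egfl7 was listed at 0 in every HC1 and HC2 knockout library and at 0.566 RPKM or above in their wild types. In the SVZ it had 1.73, 2.99 and 0 RPKM in the libraries labelled wild type 1 to 3 and 0.094, 2.86 and 0 in those labelled knockout 1 to 3, so 2 SVZ labels went against the targeted gene, and SVZ genotypes below are as labelled. Of the 10 neural stem and progenitor markers all were measured, with summed levels of 8448 to 11870 RPKM in the SVZ, 12050 to 14440 in HC1 and 7045 to 11060 in HC2. The 8 microglia markers summed to at most 3.67 RPKM in any library, with Cx3cr1 and C1qa at 0 throughout, and the 8 endothelial markers to at most 7.80 RPKM.

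Promoter windows were available from RefSeq (GRCm38.p6) for 34 of the 44 genes, and a sequence feature shared by many of them was a match to the E2F site. Searched on both strands as TTTCCCGC, TTTCGCGC, TTTGCCGC or TTTGGCGC from 250 bases before to 50 after the start, it was present in 15 of the 34 genes (44.1%), where a gene with several windows counted once if any held a match. The share was 2.60% among all 27025 genes with a window and 4.48% among the 10950 of them that passed the expression filter. CCAAT, on either strand, was present in 61.8% of the 34 genes and 41.1% of all genes with a window. The cell cycle homology motif TTTGAA, likewise on both strands, was present in 11.8% and 20.2%. The 250 bases before the start are shown for the 2 genes of the widest log2(RPKM + 1) range among HC2 libraries, Mcm5 (chr8:75109259-75109508, plus strand) and Mcm6 (chr1:128359706-128359955, minus strand), for Mcm7 (chr5:138171884-138172133, minus strand), which separated HC2 from HC1, and for Rpa1 (chr11:75348384-75348633, minus strand), the gene of the narrowest range. Each runs 5′ to 3′ on the gene's strand, with E2F matches in capitals.
Mcm5: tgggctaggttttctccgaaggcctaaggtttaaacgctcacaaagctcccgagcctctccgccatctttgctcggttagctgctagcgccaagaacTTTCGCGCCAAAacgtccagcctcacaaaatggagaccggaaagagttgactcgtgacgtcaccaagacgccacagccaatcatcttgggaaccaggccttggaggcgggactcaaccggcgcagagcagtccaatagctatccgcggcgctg
Mcm6: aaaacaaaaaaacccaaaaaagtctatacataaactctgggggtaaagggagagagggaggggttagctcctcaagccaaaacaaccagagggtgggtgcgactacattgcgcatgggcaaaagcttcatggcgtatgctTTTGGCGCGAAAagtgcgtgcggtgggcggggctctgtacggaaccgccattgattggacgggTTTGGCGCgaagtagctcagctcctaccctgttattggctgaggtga
Mcm7: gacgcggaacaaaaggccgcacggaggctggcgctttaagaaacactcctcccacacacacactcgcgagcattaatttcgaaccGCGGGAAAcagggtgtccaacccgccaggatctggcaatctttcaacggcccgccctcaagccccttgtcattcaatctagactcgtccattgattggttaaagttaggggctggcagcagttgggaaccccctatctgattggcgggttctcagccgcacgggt
Rpa1: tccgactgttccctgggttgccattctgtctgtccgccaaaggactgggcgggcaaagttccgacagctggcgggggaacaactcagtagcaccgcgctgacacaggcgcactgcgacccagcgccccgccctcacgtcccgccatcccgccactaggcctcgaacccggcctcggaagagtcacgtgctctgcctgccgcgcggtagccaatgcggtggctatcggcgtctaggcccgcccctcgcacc
In Mcm5 the matches start at -153 and -149 from the start site on opposite strands and overlap, so 1 run of capitals holds both. Mcm6 has an overlapping pair at -110 and -106 and a separate match at -47. Mcm7 has 1 match in the sequence shown, at -165 on the opposite strand, and a second, not shown, at 16 after the start. RefSeq gives Mcm7 another start, whose window (chr5:138171217-138171516) holds no match, and the window with matches is the one shown. These letters do not occur in the Rpa1 window. A match is a description of sequence and not a measured binding site. Among the 10 genes of the widest HC2 range that have a window, 6 held a match, and among the 10 of the narrowest, 4 did.

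SVZ spheres carried more RNA of the replication genes than HC1 spheres. Of the 44 genes, 31 were called higher in the SVZ and none lower, where 14.5% of all genes tested were called higher and 19.6% lower. The median difference was 1.15 on the log2 scale, from 0.28 for Rpa3 to 1.74 for Chaf1b, against -0.03 over all genes. In 42 of the 44 genes every SVZ library lay above every HC1 library, a separation seen upward in 11.4% of all genes. Gins3 and Rpa3 were the exceptions. Region and culture day differ together in this comparison, as does donor sex in the wild types, and these cannot be told apart.

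**Figure D1:**
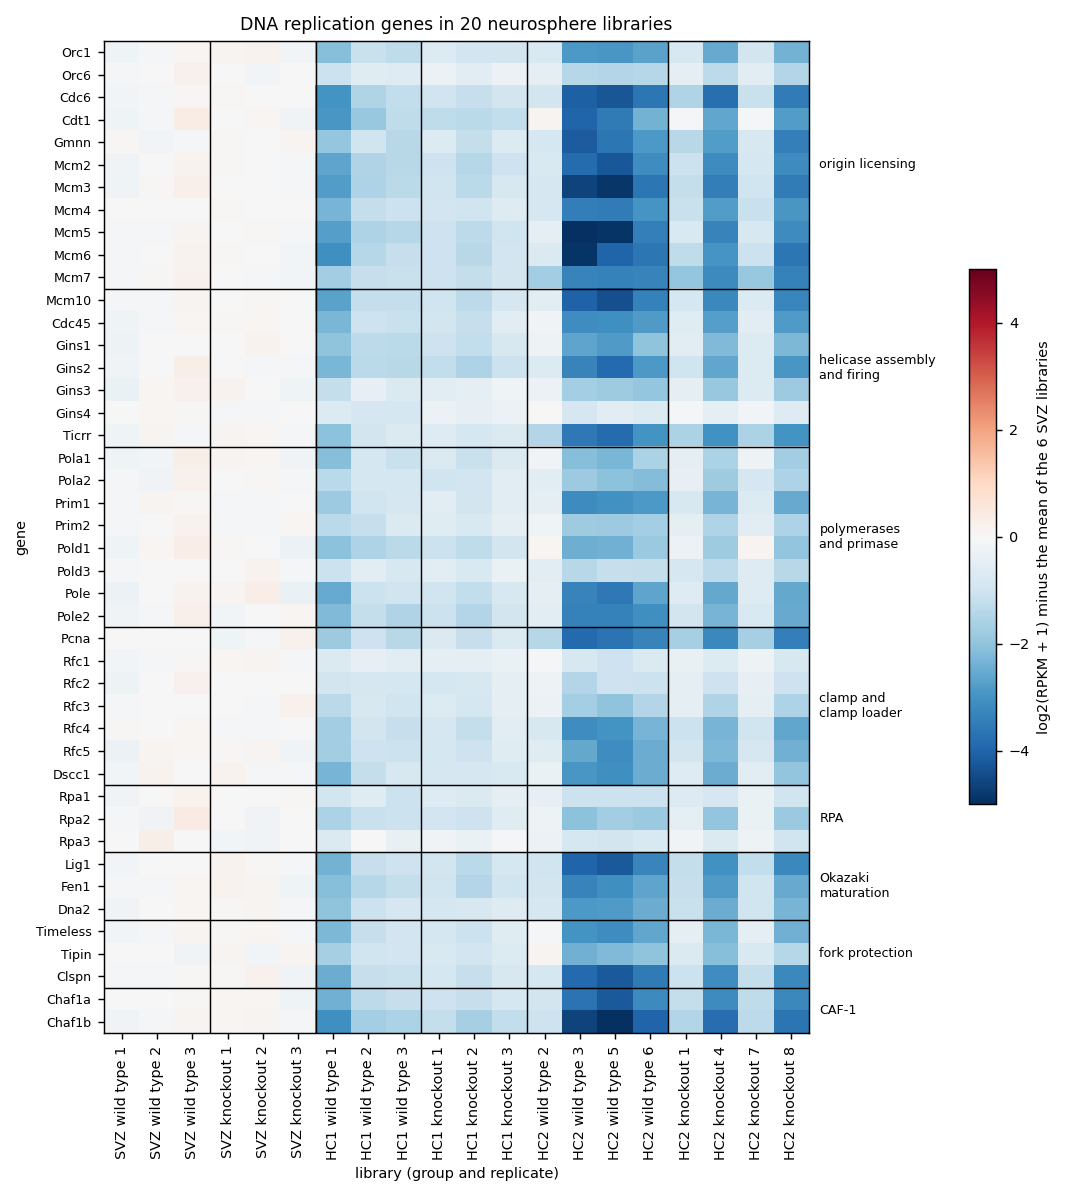
Heatmap of the 44 replication genes (rows, by role) in 20 libraries (columns, by group), coloured by log2(RPKM + 1) minus the mean of the 6 SVZ libraries of that gene. The SVZ columns are nearly even, HC1 wild type 1 is the lowest HC1 library in 42 genes, and HC2 wild type 2, knockout 1 and knockout 7 stand above the other HC2 libraries in all 44.

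Among the licensing genes, Mcm5, a subunit of the hexameric helicase, had 133, 137 and 159 RPKM in the libraries labelled SVZ wild type and 145, 152 and 138 in those labelled SVZ knockout. In HC1 it had 20.3, 48.8 and 53.3 RPKM in the wild types and 70.5, 57.0 and 72.4 in the knockouts. The groups did not overlap, with means of 144 ± 9.69 (SD, n = 6) in the SVZ and 53.7 ± 18.9 (SD, n = 6) in HC1, but the difference of 1.51 (SE 0.64) was not called by limma (adjusted p = 0.0800). Mcm7, another subunit, had 157, 171 and 189 RPKM in SVZ wild type and 167, 153 and 150 in SVZ knockout, against 49.1, 73.9 and 74.4 in HC1 wild type and 80.4, 70.4 and 85.2 in HC1 knockout. The lowest SVZ library thus lay well above the highest HC1 library, and Mcm7 was called (1.19, SE 0.29, adjusted p = 0.00619). In licensing as a whole, 7 of 11 genes were called higher (median 1.46). The uncalled ones were Gmnn, which encodes geminin, with Mcm3, Mcm5 and Mcm6, at 1.14 to 1.51.

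Cdt1, the loading factor that geminin binds, had 20.3, 22.9 and 30.9 RPKM in SVZ wild type and 23.0, 25.4 and 20.5 in SVZ knockout. HC1 libraries held 2.24, 5.58 and 9.19 RPKM in the wild types and 9.11, 8.60 and 9.53 in the knockouts. This was a ratio of means of 3.23 in RPKM, the highest of the 44, and Cdt1 was called (1.66, SE 0.62, adjusted p = 0.0468). Set against geminin, the Cdt1 level was 0.299 to 0.522 of the Gmnn level in the SVZ and 0.142 to 0.391 in HC1, ranges that overlap. Orc1, the cell cycle-regulated subunit of the origin recognition complex, was called at 1.18 (SE 0.36), and Orc6, another subunit, at 0.58 (SE 0.19). Cdc6 was called at 1.46 (SE 0.55), and the helicase subunits Mcm2 and Mcm4 at 1.51 (SE 0.51) and 1.19 (SE 0.42).

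In helicase assembly and firing, 4 of 7 genes were called higher: Gins1 (1.28, SE 0.38) and Gins2 (1.48, SE 0.46), subunits of the GINS complex that joins Cdc45 on the helicase, Gins4 of the same complex (0.57, SE 0.12), and Ticrr, which brings firing factors to licensed origins (0.98, SE 0.37). The GINS subunits were thus unequal in size of difference, and Gins3 reached 0.60 (SE 0.29) without a call. Mcm10 and Cdc45, both needed to activate the helicase, stood at 1.36 (SE 0.58) and 1.17 (SE 0.50) and were not called. Polymerase and primase genes were called in 6 of 8 cases, from 0.68 for Pold3, an accessory subunit of polymerase delta, to 1.40 for Pole2, a subunit of polymerase epsilon. Between them lay Pold1 (1.37), Pola1 (1.12) and Pola2 (0.94), subunits of polymerases delta and alpha, and Prim2, the large primase subunit (0.84). Pole, the catalytic subunit of epsilon (1.27, SE 0.49), and Prim1, that of primase (0.94, SE 0.41), were not called.

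The sliding clamp Pcna had the highest mean SVZ level of the 44 genes, with 330, 324 and 326 RPKM in SVZ wild type and 278, 309 and 371 in SVZ knockout. Its HC1 values were 90.5, 157 and 121 RPKM in the wild types and 192, 146 and 196 in the knockouts. Every SVZ library exceeded every HC1 library, and Pcna was called (1.14, SE 0.38, adjusted p = 0.0302). All 5 subunits of the clamp loader were called too, with Rfc1, the large subunit, at 0.50 (SE 0.13) and Rfc2, Rfc3, Rfc5 and Rfc4 at 0.80, 0.87, 1.05 and 1.06. Dscc1, of an alternative loader, stood at 1.12 (SE 0.43) and was not called.

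Rpa1, the large subunit of RPA, had the smallest adjusted p of the 44 genes. It held 110, 126 and 141 RPKM in SVZ wild type and 122, 124 and 130 in SVZ knockout, against 66.1, 80.9 and 58.1 in HC1 wild type and 80.2, 76.1 and 90.5 in HC1 knockout. The difference of 0.74 (SE 0.13, adjusted p = 0.00079) was modest, with little spread inside each group. Rpa2 was called at 1.07 (SE 0.32), and Rpa3, the small subunit, was not (0.28, SE 0.15). The 3 Okazaki genes were all called: Lig1, the ligase (1.29, SE 0.48), Fen1, the flap nuclease (1.36, SE 0.38), and Dna2, a nuclease and helicase (1.05, SE 0.34). Both CAF-1 genes, which deposit histones behind the fork, were called, Chaf1a at 1.32 (SE 0.48) and Chaf1b at 1.74 (SE 0.58). Of the fork protection genes only Tipin was (1.01, SE 0.35). Its partner Timeless had 1.15 (SE 0.47) and the checkpoint mediator Clspn 1.27 (SE 0.50).

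The size of the SVZ difference was steadier than the number of calls. The median lay between 0.99 and 1.24 and all 44 differences were positive under every alternative run. The count of 31 fell to 13 without HC1 wild type 1, to 17 without SVZ wild type 3, to 18 without HC1 knockout 2, to 19 without SVZ knockout 2, to 20 without SVZ wild type 2, and to 5 without both SVZ libraries whose Egfl7 value went against the label. With only the SVZ and HC1 groups in the fit, so that the wide HC2 spread did not enter, it was 43. Rpa1, Rfc2, Gins4, Pold3 and Mcm7 were called under all 23 alternatives. Among male donors alone, the knockouts, every SVZ library lay above every HC1 library in 43 of 44 genes, against 19.4% of all genes. There the median was 0.88. No gene was called by limma, against 2.63% of all genes called higher, 4.43% lower and 7.06% in either direction. An unadjusted limma p under 0.05 was reached by 7 of the 44 genes and by 4232 of the 16403 genes tested. The count of called genes was 41 with only those groups in the fit and 28 with libraries weighted by their spread (arrayWeights).

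**Figure D2:**
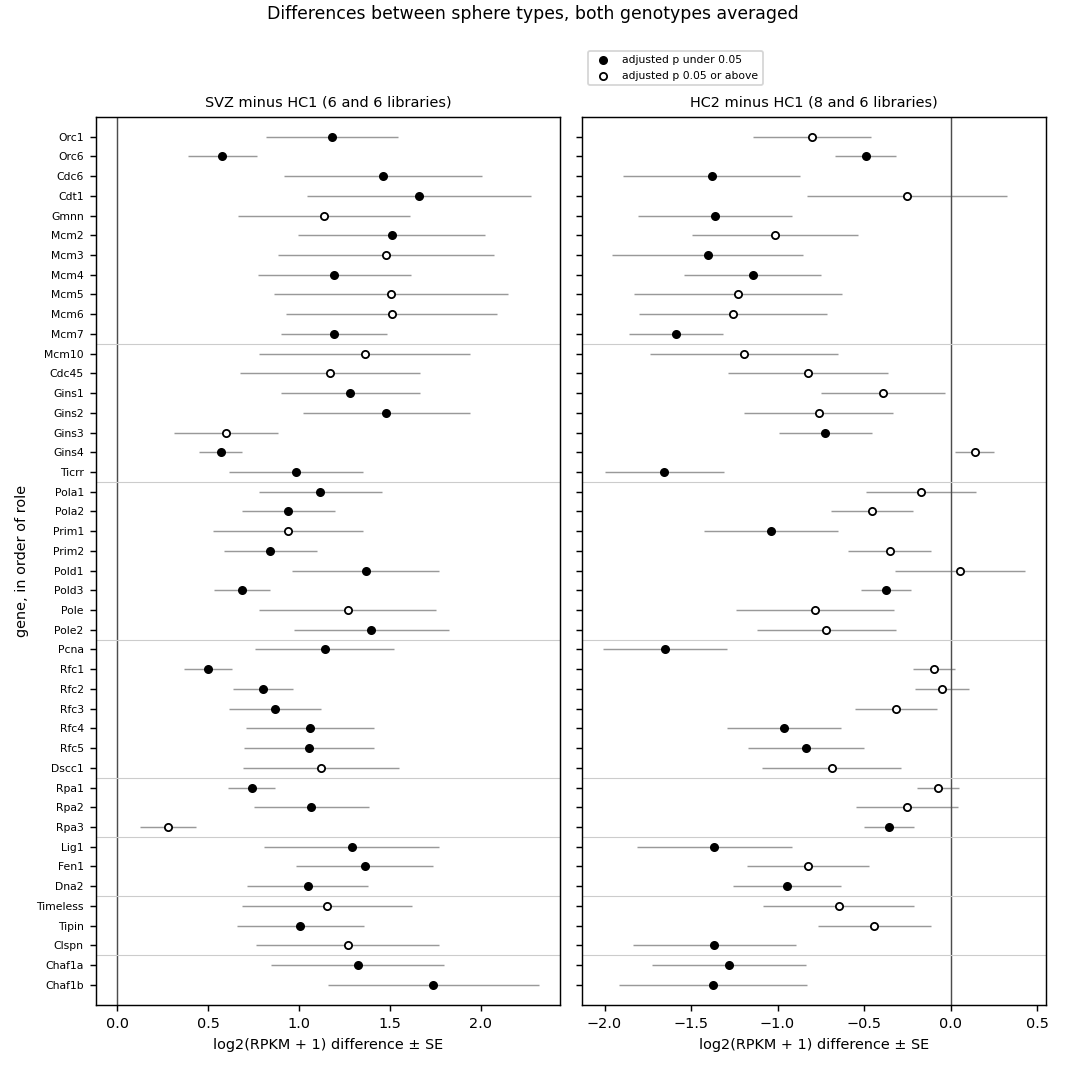
Log2(RPKM + 1) difference ± SE of each of the 44 genes, ordered by role, between SVZ and HC1 (left) and between HC2 and HC1 (right), with filled points where the adjusted p is under 0.05. In the left panel all 44 points lie above 0 and 31 are filled, and in the right panel 42 lie below 0 and 19 are filled, with Gins4 and Pold1 above 0 (5 genes above 0 when each library is centred on its median).

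Some of the replication genes were lower in the second sphere round than in the first, and 25 of the 44 were not called. In HC2 against HC1, 19 of 44 genes were called lower and none higher, where 31.5% of all genes were called lower and 54.3% in either direction. The median difference was -0.79, against -0.06 over all genes, and ran from -1.65 for Ticrr to 0.14 for Gins4. Mcm7 alone separated the rounds without overlap, where 16.5% of all genes lay below without overlap. Round goes with sequencing depth, and in the wild types with donor sex, and these cannot be told apart.

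Mcm7 held 47.8, 15.1, 14.7 and 15.4 RPKM in HC2 wild types 2, 3, 5 and 6 and 42.7, 17.1, 42.8 and 14.8 in HC2 knockouts 1, 4, 7 and 8. Even the highest of these lay below the lowest HC1 library (49.1 RPKM), and the difference was -1.59 (SE 0.27, adjusted p = 0.000111). The gene overlaps Mir25, Mir93 and Mir106b on the same strand. Ticrr had 4.91, 0.37, 0.163 and 1.07 RPKM in the HC2 wild types and 4.47, 1.02, 4.59 and 1.06 in the HC2 knockouts, against 3.02 to 9.67 in HC1. It was called at -1.65 (SE 0.34, adjusted p = 0.000634). Ticrr overlaps Kif7 on the opposite strand (median 15.01 RPKM), and no source used here says whether counting used strand.

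Pcna fell as well. Its HC2 levels were 120, 20.6, 24.2 and 30.8 RPKM in the wild types and 102, 33.5, 100 and 29.1 in the knockouts, and the difference was -1.65 (SE 0.36, adjusted p = 0.000923). The 3 highest HC2 libraries reached the lower end of HC1 (90.5 RPKM), and the other 5 did not. Mcm7, Ticrr, Pcna, Lig1 and Gmnn were called under all 25 alternatives. Lig1 stood at -1.37 (SE 0.45) and Gmnn at -1.36 (SE 0.44).

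Both CAF-1 genes, 6 of 11 licensing genes, 3 of 7 clamp genes and 2 of 3 Okazaki genes were called lower. Only 2 of 8 polymerase genes (Prim1 and Pold3), 2 of 7 firing genes (Ticrr and Gins3), 1 of 3 RPA genes (Rpa3) and 1 of 3 fork genes (Clspn) were. Cdt1 (-0.25, SE 0.58), Pola1, the catalytic subunit of polymerase alpha (-0.17, SE 0.32), and Pold1, that of polymerase delta (0.05, SE 0.38), were not called. Their intervals were wide: the 95% interval of Cdt1 ran from -1.49 to 0.99. Rfc1 (-0.10), Rfc2 (-0.05) and Rpa1 (-0.07) had SEs of 0.12 to 0.16 and were not called.

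The count of 19 depended on single libraries. It was 6 without HC1 wild type 2 and also 6 without HC1 wild type 3, 9 without HC1 knockout 3, 10 without HC2 wild type 5 or 6 or HC2 knockout 4 or 8, 11 without HC1 knockout 1 or HC2 wild type 3, and 36 without HC2 wild type 2. Among male knockouts alone, 3 of 44 genes were called lower, against 22.3% of all genes called lower and 38.3% in either direction: Mcm7 (-1.55, SE 0.39, adjusted p = 0.00435), Pcna (-1.63, SE 0.51, adjusted p = 0.0169) and Ticrr (-1.55, SE 0.49, adjusted p = 0.018). The median was -0.75, and -0.46 and -0.47 without HC2 knockouts 4 and 8. Without HC1 knockout 1, HC2 knockout 4 or HC2 knockout 8 that count was 1, without HC2 knockout 1 it was 5 and without HC2 knockout 7 it was 7. In 6 genes the HC2 knockouts lay below the HC1 knockouts without overlap, against 24.8% of all genes: Mcm4, Mcm7, Ticrr, Pcna, Dna2 and Chaf1a.

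**Figure D3:**
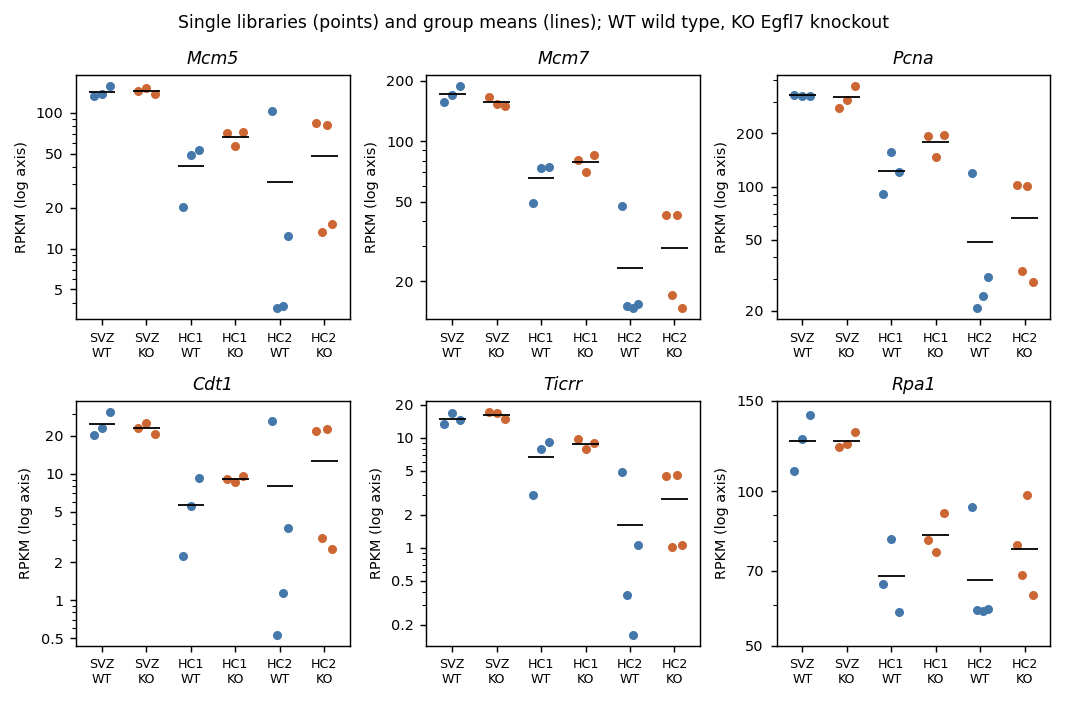
RPKM on a log axis in single libraries (points; blue wild type, orange Egfl7 knockout) with the group mean (line) for 6 replication genes. Mcm7 in HC2 stays below every HC1 library, Cdt1 reaches SVZ levels in 3 HC2 libraries and falls to 0.534 RPKM in another, and Rpa1 keeps within 58.3 to 98.3 RPKM in HC2.

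The HC2 libraries differed from one another in 1 direction across the whole set. In all 44 genes wild type 2, knockout 1 and knockout 7 were the 3 highest of the 8 HC2 libraries, an order seen in 20.9% of all genes tested. Wild type 2 was the highest in 39 genes. The lowest library was wild type 5 in 24 genes, wild type 3 in 15, knockout 8 in 3 and wild type 6 in 2. The 3 high libraries come from both genotypes, and their relative depths of 2.236, 2.44 and 1.389 span those of the other 5 (1.59 to 2.285). Over all 44 genes the median range among HC2 libraries was 2.54 on the log2 scale, against 0.72 for all genes tested and 0.68 for those with a mean at least as high as the lowest of the 44. The same median range was 1.27 in HC1 (0.52 for all genes) and 0.34 in the SVZ (0.44 for all genes).

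The size of this spread differed by role. The median HC2 range was 3.62 for the 2 CAF-1 genes, 3.40 for licensing genes and 0.82 for RPA genes. Single genes of these roles overlapped, with 1.02 to 4.49 in licensing and 0.74 to 1.80 in RPA. Mcm5 had the widest range on the log2(RPKM + 1) scale (4.49), with 103, 3.63, 3.77 and 12.5 RPKM in wild types 2, 3, 5 and 6 and 83.4, 13.3, 81.4 and 15.1 in knockouts 1, 4, 7 and 8. As a ratio of RPKM the highest Mcm5 library was 28.4 times the lowest, and on that scale Dscc1 (62.9), Mcm10 (50.6), Cdt1 (49.4), Cdc6 (47.7), Ticrr (30.1) and Chaf1b (30.0) spanned more. On the log2(RPKM + 1) scale, the next widest after Mcm5 were Mcm6 (4.18), Cdt1 (4.16), Mcm3 (4.03), Chaf1b (3.96), Mcm10 (3.80), Mcm2 (3.50) and Cdc6, which loads the helicase with Cdt1 (3.40). Rpa1 was the narrowest (0.74), with 93.0, 58.6, 58.3 and 58.9 RPKM in the wild types and 78.5, 68.7, 98.3 and 62.9 in the knockouts. Gins4 (0.81), Rpa3 (0.82), Pold3 (0.88), Rfc1 (0.93), Orc6 (1.02) and Rfc2 (1.22) followed. Subunits of 1 complex thus differed in range: Gins2 had 3.22 beside 0.81 for Gins4, and Rfc4 had 2.30 beside 0.93 for Rfc1.

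The helicase subunits did not keep their proportions. Mcm7 was 1.01 to 1.24 times the Mcm5 level in the SVZ. It was 0.463, 0.512 and 0.526 times in HC2 wild type 2, knockout 1 and knockout 7, and 4.17 and 3.90 times in HC2 wild types 3 and 5, with 0.974 to 1.29 in the other 3 HC2 libraries. In HC1 it was 2.42 in wild type 1 and 1.14 to 1.52 in the other 5 libraries. The highest of Mcm2 to Mcm7 was 1.21 to 1.49 times the lowest in the SVZ, and up to 4.49 times in HC2. Cdt1 against Gmnn spanned 0.208 to 0.945 in HC2, and was highest in wild type 2 (0.793), knockout 1 (0.945) and knockout 7 (0.641).

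The 3 high HC2 libraries did not return all genes to the levels of other groups. The highest HC2 library exceeded the highest HC1 library in 28 of 44 genes and the lowest SVZ library in 10: Cdt1, Cdc45, Gins3, Gins4, Pola1, Pold1, Rfc1, Rpa3, Timeless and Tipin. Tipin reached 145 RPKM in wild type 2, against 117 to 146 in the SVZ. Mcm7, Ticrr, Pcna, Orc1, Lig1 and Clspn were among the 16 genes whose highest HC2 library did not exceed HC1.

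Markers of astrocytes, glia that share many genes with quiescent neural stem cells, moved with this order, as did those of oligodendrocytes. All 8 astrocyte markers were measured, and their sum was 997, 3444, 4318 and 2974 RPKM in HC2 wild types 2, 3, 5 and 6 and 1343, 2395, 1441 and 3660 in HC2 knockouts 1, 4, 7 and 8, so it was lowest in the 3 libraries in which the replication genes were highest. Each marker alone followed the same division except Aldh1l1, which had 512 RPKM in knockout 1 and 314 to 408 in wild types 3 and 6 and knockouts 4 and 8. Aldoc made up the largest share of the sum. The 8 oligodendrocyte markers summed to 205, 218 and 193 RPKM in wild type 2, knockout 1 and knockout 7 and to 292 to 437 in the other 5 libraries. Gfap, the intermediate filament of astrocytes and some stem cells, had 1.33, 114, 536 and 20.8 RPKM in the wild types and 9.96, 84.9, 2.47 and 328 in the knockouts. Nes, the progenitor filament nestin, had 287, 65.2, 59.1 and 126 RPKM in the wild types and 268, 160, 240 and 113 in the knockouts, highest in the same 3 libraries. The 10 stem and progenitor markers as a sum did not follow the order, with 8654 RPKM in knockout 7 and 11060 in wild type 3, and among them Msi1 was lowest in the 3 libraries (38.1, 44.7 and 42.3 RPKM against 56.7 to 90.3). Sox2, a stem cell transcription factor, was present throughout HC2, at 183 to 320 RPKM. In HC1, wild type 1 had the highest astrocyte sum (2532 against 1246 to 1586 RPKM) and the highest oligodendrocyte sum (642 RPKM), and was the lowest library in 42 of 44 replication genes. The part of these cell markers in the replication gene levels was not tested.

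Knockout and wild-type spheres were compared within each sphere type, and no replication gene was called in any. In the SVZ, limma called 0 of 44 genes, with 0 at an unadjusted p under 0.05, and 0.0122% of all genes were called. The differences were small, with a median of 0.01 and a range from -0.20 for Rpa3 to 0.14 for Gins1, 24 of them positive. Their errors were not small: the SE was 0.91 for Mcm5 and 0.18 for Rpa1, since the pooled spread includes HC2. Rfc4 was the single gene without overlap, with 75.2 to 79.2 RPKM in the wild types and 70.6 to 73.3 in the knockouts, against 4.35% of all genes lower without overlap. Without both libraries whose Egfl7 value went against the label the median was 0.07, and still no gene was called.

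In HC1, all 44 differences were positive, with a median of 0.52 and a range from 0.16 to 0.89, against -0.01 over all genes. Limma called none of the 44, where 0.0122% of all genes were called. An unadjusted limma p under 0.05 was reached by 1 of the 44 (Gins4) and by 646 of the 16403 genes tested. Gins4 had 31.4, 28.5 and 27.2 RPKM in the wild types and 41.9, 38.5 and 41.9 in the knockouts, a difference of 0.48 (SE 0.17, adjusted p = 0.976). In 12 genes the knockouts lay above the wild types without overlap, where 6.63% of all genes did: Orc1, Orc6, Cdc6, Mcm3, Mcm4, Mcm5, Gins1, Gins4, Pold1, Rfc5, Rpa2 and Tipin. Wild type 1 lay below all 3 knockouts in 44 genes, wild type 2 in 23 and wild type 3 in 21. The shares over all genes were not computed for these counts of single libraries. Without wild type 1 the median was 0.20.

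**Figure D4:**
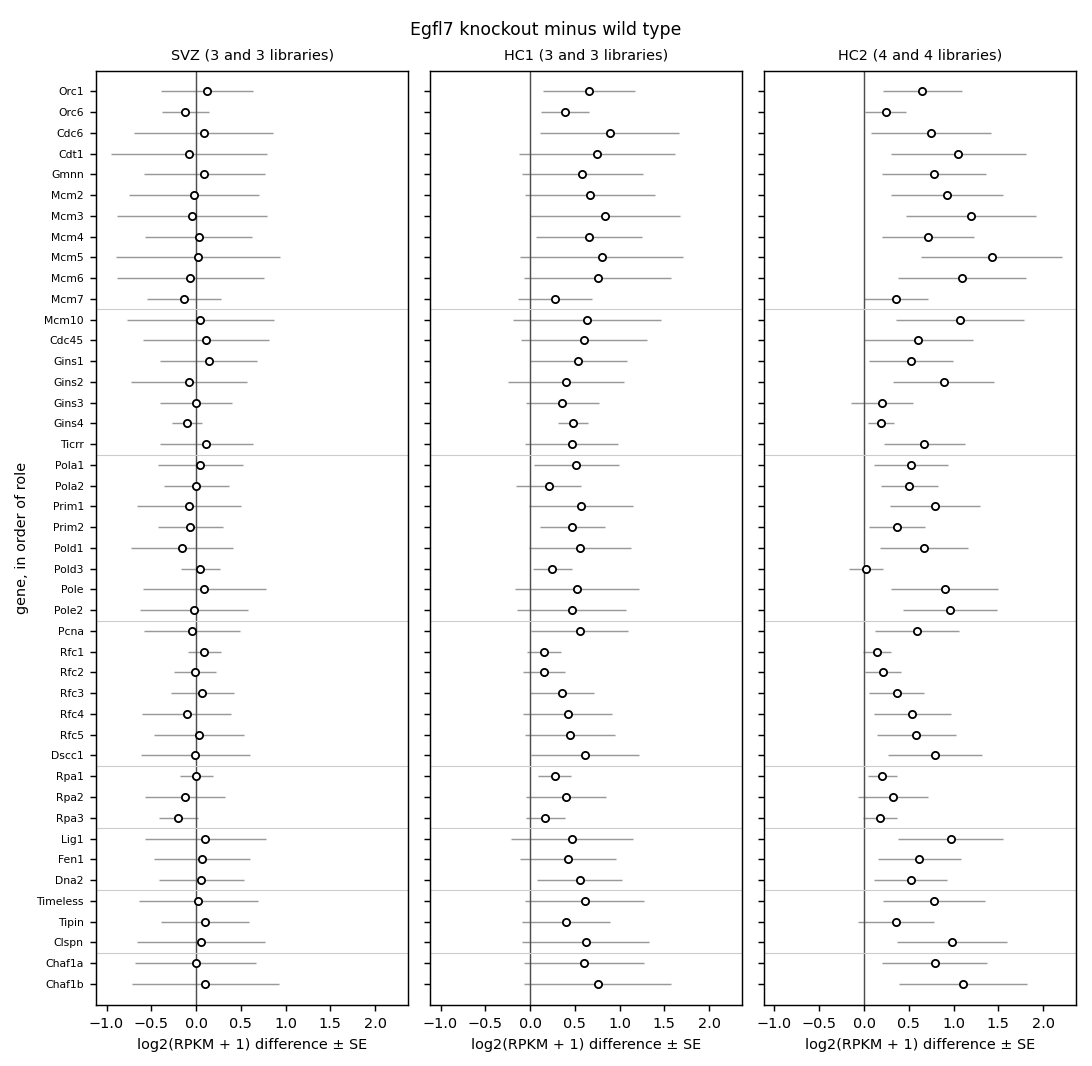
Egfl7 knockout minus wild type for each of the 44 genes in SVZ, HC1 and HC2 spheres, as log2(RPKM + 1) difference ± SE, all open because none had an adjusted p under 0.05. SVZ points lie around 0, HC1 points run from 0.16 to 0.89, and HC2 points from 0.02 to 1.42.

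In HC2, all 44 differences were again positive, with a median of 0.64 and a range from 0.02 for Pold3 to 1.42 for Mcm5. None was called by limma (adjusted p of 0.988 to 0.998), with 0 at an unadjusted p under 0.05 and 0.0244% of all genes called. No gene separated the genotypes, where 0.719% of all genes lay above without overlap and 0.408% below. In all 44 genes wild type 2 lay above knockouts 4 and 8, and knockouts 1 and 7 lay above wild types 3, 5 and 6. The largest differences after Mcm5 (SE 0.79) were those of Mcm3 (1.19, SE 0.73), Chaf1b (1.11, SE 0.71), Mcm6 (1.10, SE 0.71) and Mcm10 (1.07, SE 0.71). In 36 of 44 genes knockouts 4 and 8 both lay above wild types 3 and 5, a description of single libraries. Wild type 6, left out of that count, also lay above wild types 3 and 5 in 37 genes. The share over all genes was not computed for either count. The median was 1.17 without wild type 2, 0.43 without wild type 3, 0.39 without wild type 5, 0.38 without knockout 1 and 0.33 without knockout 7. The 95% interval for Mcm5 ran from -0.27 to 3.12, which holds both a small deficit and a large excess in the knockouts.

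The knockout effect was also compared between sphere types. Its difference between HC2 and the SVZ had a median of 0.60 over the 44 genes, and that between HC2 and HC1 one of 0.12. No gene was called in either by limma, with 0 at an unadjusted p under 0.05 in both, against 0.0305% (0.0061% higher) and 0.0244% of all genes. Those medians depended on single libraries. For HC2 against the SVZ the median was 1.17 without HC2 wild type 2, 0.86 and 0.91 without HC2 knockouts 4 and 8, 0.37 without HC2 wild type 3 or 5, 0.33 without HC2 knockout 1 and 0.31 without HC2 knockout 7. For HC2 against HC1 it was 0.67 without HC2 wild type 2 and 0.40 without HC1 wild type 1, and it turned negative without HC1 wild type 3, HC2 wild types 3 or 5, or HC2 knockouts 1 or 7 (to -0.14).

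Other genes of the pathway were read from lists, whose counts stand against 14.5% of all genes called higher and 19.6% lower in the SVZ, and 22.8% higher and 31.5% lower in HC2. Of 34 other replication genes, 17 were called higher and 1 lower in the SVZ than in HC1 (median 0.54), among them Rnaseh2a, a subunit of the enzyme that removes ribonucleotides from DNA (0.75), and Mcmbp, an MCM-binding protein (0.49). In HC2 against HC1, 12 of 34 were called lower, near the 31.5% of all genes, such as Top1, topoisomerase I (-0.72, SE 0.08), and Ssrp1, of the histone chaperone FACT (-0.71, SE 0.15), and 4 higher. Those named by the rule were Rnaseh2c (1.60, SE 0.20), Pold4, a small subunit of polymerase delta (0.72, SE 0.12), and Pole4, a small subunit of polymerase epsilon (1.11, SE 0.24). Pold4 and Pole4 thus stood higher in HC2, while the polymerase and primase genes among the 44 were called lower (Prim1 and Pold3) or not called. Both were named by their small p, and a relation to subunit size was not tested.

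Of 17 E2F and Rb family genes, 9 were called higher and 2 lower in the SVZ, and 12 were called lower in HC2 than in HC1, against 14.5%, 19.6% and 31.5% of all genes. Tfdp1, the dimer partner of E2F factors, stood at 0.79 (SE 0.21) in the SVZ and -1.53 (SE 0.20) in HC2, and the repressor E2f8 at -2.13 (SE 0.37) in HC2. Of 10 replication checkpoint genes, 7 were called higher and 1 lower in the SVZ, and 5 were called lower in HC2, including Hus1, of the checkpoint clamp (-0.75, SE 0.07). The SVZ and HC2 differences share the HC1 libraries.

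The 30 mitosis genes gave another balance of calls than the 44 replication genes. In the SVZ only 1 (Mybl2, 1.55, SE 0.49) was called higher than in HC1, although all 30 differences were positive (median 0.96). In HC2, 28 of 30 were called lower than in HC1 (median -1.64), such as Foxm1, a transcription factor of mitotic genes (-2.20, SE 0.43), and Ccnb1, cyclin B1 (-2.31, SE 0.55). The difference between the lists was not tested. Of the 14 G1 cyclins, kinases and inhibitors, 5 were called higher in the SVZ, and in HC2 2 were called higher, Cdkn2a (1.02, SE 0.13) and Cdkn1b (0.34, SE 0.11), both cell cycle inhibitors, and 5 lower, against 22.8% and 31.5% of all genes. Between genotypes in HC2, none of the 105 genes of these lists was called by limma. An unadjusted limma p under 0.05 was reached by 4 G1 genes and 1 other replication gene, and by 644 of the 16403 genes tested. Differences among the genes named by the rule included those of Ccnd1, cyclin D1 (2.04, SE 0.90), Ccna2, cyclin A2 (1.73, SE 0.87), Nusap1, a spindle protein (1.66, SE 0.80), and the inhibitor Cdkn1c (-1.46, SE 0.47). Values near 0 included those of E2f6 (0.00), Rad9a (0.00) and Mcm9 (-0.01).

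**Figure D5:**
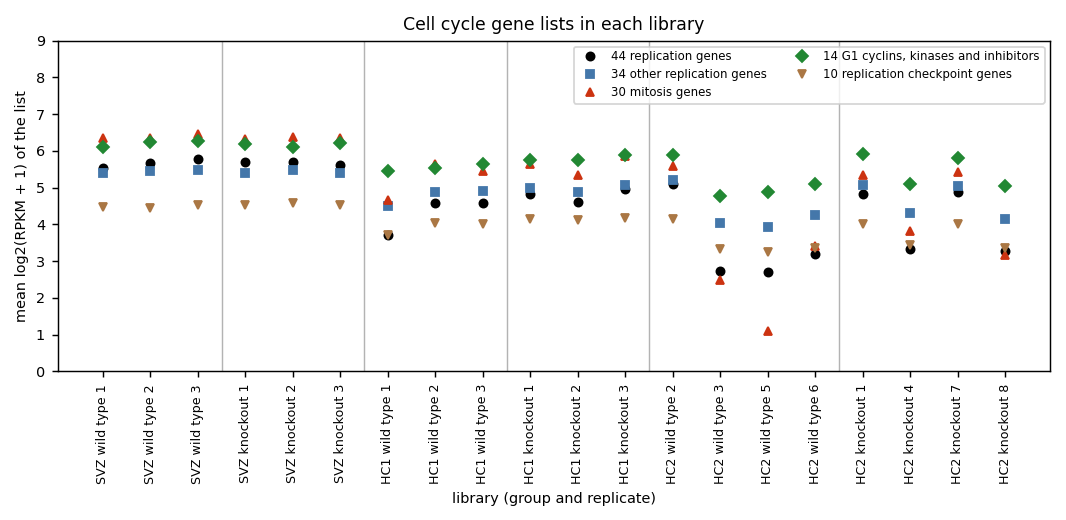
Mean log2(RPKM + 1) of 5 cell cycle gene lists in each of the 20 libraries, grouped by vertical lines. The mean of the 44 replication genes is 5.54 to 5.79 in the SVZ, 3.70 to 4.96 in HC1 and 2.70 to 5.10 in HC2, and that of the 30 mitosis genes falls to 1.10 in HC2 wild type 5.

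As a mean over the 44 genes on the log2 scale, the groups stood at 5.66 ± 0.125 (SD, n = 3) in SVZ wild type, 5.66 ± 0.05 (SD, n = 3) in SVZ knockout, 4.29 ± 0.509 (SD, n = 3) in HC1 wild type, 4.80 ± 0.177 (SD, n = 3) in HC1 knockout, 3.44 ± 1.13 (SD, n = 4) in HC2 wild type and 4.08 ± 0.902 (SD, n = 4) in HC2 knockout. Single HC2 libraries ran from 2.70 in wild type 5 to 5.10 in wild type 2, a spread larger than the distance between the HC2 genotypes. The 30 mitosis genes spanned more in the same libraries, from 1.10 to 5.60, and the 14 G1 genes less, from 4.77 to 5.91.

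Of the 44 genes, 14 overlap another gene in the deposited positions, 11 of them on the opposite strand. The partners with the most RNA were Eif4a2 at Rfc4 (median 121 RPKM), Prpf38a at Orc1 (69.6 RPKM) and Ufd1l at Cdc45 (47.2 RPKM). Reads of such a pair cannot be told apart unless counting used strand, so levels are less certain where the partner is expressed. Opposite-strand partners had little RNA at Prim2 (median 0 RPKM), Pola1 (0.0185 RPKM), Dscc1 (0.13 RPKM) and Timeless (0.37 RPKM).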

How the data were processed

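RNA sequencing of 20 neurosphere libraries was used, per the labels' protocols from ribosomal RNA-depleted, stranded, exon-captured libraries. The authors deposited linear RPKM per gene (a number with decimal commas, with another table holding the same values for fewer genes), per the file headers; these other values are normalized, not counts. Per the submitters' processing notes, FastQC 0.11.5 and DESeq2 were used on mm10 (GRCm38); the aligner, the counter and the use of strand are not stated there or in the labels. Blanks were read as 0. A gene was kept at 0.5 RPKM or more in 3 or more libraries (16403 of 36724, 44.7%). limma 3.58.1 in R 4.3.3 was fitted to log2(RPKM + 1), which understates changes of low genes, with 6 group means, 14 residual degrees of freedom, and eBayes with trend and robust. It was tested on simulated data. Relative depth came from values that are whole multiples of 1 read (95.7 to 99.1% whole within 0.1 of a read), relative to HC1 wild type 1. Members and lists were chosen with earlier results of these data known. All 44 members are named. From the other lists, up to 5 called genes per list and comparison by smallest p and, in the HC2 genotype comparison, the 2 largest and 2 smallest differences could be named. Promoters came from RefSeq, GRCm38.p6. Within a sphere set the labels number the mice separately, and libraries were treated as independent; p-values measure only the spread between these libraries. Same-numbered SVZ and HC1 libraries did not deviate together (correlations of -0.259 to 0.007), so replicate numbers were not used to pair. Alternatives covered the pseudocount, filters, scaling, library weights, groups in the fit, blocks and left-out libraries. Donor sex could not be varied.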

Additional observations from a re-analysis of the deposited data

Results flagged for a closer look

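In HC2 wild type, replicate 2 stood apart from the other 3 libraries in 11 of the 44 replication genes. The gap to the next library, as a share of the whole range on the log2(RPKM + 1) scale, exceeded Dixon's 95% critical value of 0.829. The values of replicate 2 were 4.46 RPKM for Orc1, 44.24 for Orc6, 47.79 for Mcm7, 40.65 for Cdc45, 7.416 for Gins3, 47.93 for Prim1, 68.8 for Prim2, 15.46 for Pole2, 92.98 for Rpa1, 26.42 for Timeless and 144.6 for Tipin. These were the highest of the 4 libraries in each case. Groups tested numbered 90, of which 12.2% were flagged, while chance flags about 1 in 20. The genes are not independent, since they moved together across libraries.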

How the results depend on the processing

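No replication gene was called between genotypes, or for a difference between knockout effects, under any alternative run. The medians kept their sign in the HC1 and HC2 genotype comparisons and in SVZ and HC2 against HC1, but not in the SVZ genotype comparison (-0.04 to 0.09) or for the knockout effect in HC2 against HC1 (-0.14 to 0.67). For HC2 against HC1, the 19 calls became 38 with array weights, 7 with only the groups compared in the fit and 10 with the replicate block. Leaving out 1 library gave 6 to 36. Centring on the library median gave 12 lower and 1 higher, and quantile normalization 16 and 1, with Gins4 the higher gene (0.25 and 0.26). Centring moved the median of all genes from -0.06 to 0.05 in that comparison. In the knockouts alone, 3 became 23 with array weights and 1 to 7 with 1 library left out. For SVZ against HC1, 31 became 15 with the replicate block, 5 without the SVZ libraries whose Egfl7 value went against the label, and 13 to 33 with 1 library left out. In the knockouts alone, 0 became 2 when centred on the library median, 28 with array weights and 41 with only the groups compared in the fit. Fewer libraries leave fewer degrees of freedom, and otherwise the cause was not tested. Same-numbered libraries did not deviate together, and the block changed no other call count beyond 1.5 times. A donor sex term could not be fitted where HC1 wild type enters, since it is the only female group. In the other comparisons such a term leaves the fit unchanged, so it tests nothing. With 3 or 4 libraries a group and HC2 ranges of up to 4.49 on the log2 scale, small genotype differences were not detectable.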
